A study of Mus musculus with 23 samples.

Results

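Actin and tubulin transcripts were examined as RNA contacts of the chromatin protein CTCF in mouse cells, through 9 genes: the actins Actb and Actg1, the α-tubulins Tuba1a, Tuba1b and Tuba1c, the β-tubulins Tubb5, Tubb4b and Tubb2b, and Cobl, an actin nucleator. They are 9 of 55413 annotated genes, of which 13608 held at least 1 crosslink site. The list of actins and tubulins was drawn up with earlier results of these data known and leaves out other family members. Cobl was chosen by its measured site counts in these lists, high in embryonic stem cells (ESCs) and close to 0 in neural progenitor cells (NPCs), so that contrast is given for it as a description. A site belonged to a gene when it lay on the gene's strand between its GENCODE ends. The 9 genes held 2058 of 1346716 sites, with 1045, 415 and 295 in ESC WT, ESC ΔZF1 and the ESC control and 184, 73 and 46 in the matching NPC lists.

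CTCF iCLIP2 maps the nucleotides at which UV light links CTCF to RNA. E14 ESCs carried endogenous CTCF fused to an AID2 degron that is removed with 1 µM 5-Ph-IAA, and a Flag-Halo rescue CTCF, either WT or with a deletion in zinc finger 1 (ΔZF1), induced with 1 µg/mL doxycycline, all for 24 hours. NPCs came from 2 days of differentiation of the same lines, and each rescue line was 1 clone. Crosslinked cells received 400 mJ/cm2 at 254 nm, and the non-crosslinked controls (noXL) came from the WT rescue line alone, without UV. Each of the 6 groups (WT, ΔZF1 and noXL in either cell type) had 4 libraries, apart from NPC WT with 3.

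The authors merged the libraries of a group before calling sites with PureCLIP, so each group has 1 list, no value has a replicate error, and no test between conditions could be made. Ranges after values are 95% Wilson intervals, or log2 ratios derived from them, and cover counting error only. The lists held from 102002 sites in genes (NPC noXL) to 429119 (ESC WT), and the read depth behind them is unknown. Of 6 ESC markers, Esrrb and Klf4 had 460 and 66 WT sites in ESCs and 0 in NPCs, and Tfcp2l1 (343 and 5), Zfp42 (164 and 11), Nanog (85 and 14) and Pou5f1 (37 and 14) kept some, the last within the limits once scaled (-0.44), while the neural marker Nes went from 2 to 28, but the neural markers Sox1, Pax6, Hes5 and Zic1 held 0 sites in both WT lists. A list counts contacts, and the amount of each RNA in the cells was not measured here, so fewer contacts per RNA, less RNA per cell and fewer expressing cells cannot be told apart.

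Actins and tubulins build the filaments of the cytoskeleton. Actb and Actg1 encode the cytoplasmic β- and γ-actin found in nearly every cell, and α- and β-tubulin pair into the dimers that polymerise into microtubules, with Tuba1a and Tubb2b best known from developing neurons. Their mRNAs are short and abundant, and the families have many closely related copies and processed pseudogenes in the genome. Cobl (cordon-bleu) starts new actin filaments through its WH2 domains and shapes the dendrites of neurons.

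The 8 actin and tubulin genes span 2.54 to 8.22 kb and each held 26 to 48 sites in ESC WT, while Cobl spans 228 kb and held 760. Actb, on chromosome 5 from 142903115 to 142906754, held 48, 16 and 3 sites in ESCs (WT, then ΔZF1, then noXL) and 30, 6 and 6 in NPCs in that order. Actg1, on chromosome 11 from 120345690 to 120348542, held 35, 14 and 9 sites in ESCs and 21, 7 and 3 in NPCs. For both actins the WT list held the most sites in each cell type.

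The α-tubulins lie together on chromosome 15. Tuba1a (98949837 to 98953703) held 32, 9 and 6 sites in ESC WT, ΔZF1 and noXL, and 34, 11 and 2 in NPCs. Tuba1b (98931425 to 98934565) held 33, 11 and 10 sites in ESCs and 18, 5 and 2 in NPCs. Tuba1c (99029891 to 99038110, the only one of the 9 genes on the plus strand) held 26, 19 and 8 sites in ESCs and 19, 10 and 7 in NPCs. Tuba1a was the only gene of the 9 with more sites in NPC WT than in ESC WT.

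Among the β-tubulins, Tubb5 (chromosome 17, 35833921 to 35838306) held 41, 15 and 12 sites in ESCs and 19, 9 and 7 in NPCs. Tubb4b (chromosome 2, 25222160 to 25224702) held 35, 18 and 14 sites in ESCs and 25, 12 and 11 in NPCs. Tubb2b (chromosome 13, 34126748 to 34130466) held 35, 21 and 8 sites in ESCs and 16, 13 and 5 in NPCs. Tubb4b thus had the largest noXL counts of the 8 in both cell types. Cobl (chromosome 11, 12236608 to 12464960) held 760, 292 and 225 sites in ESCs and 2, 0 and 3 in NPCs. No list held a site on the opposite strand of any of the 9 genes.

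**Figure D1:**
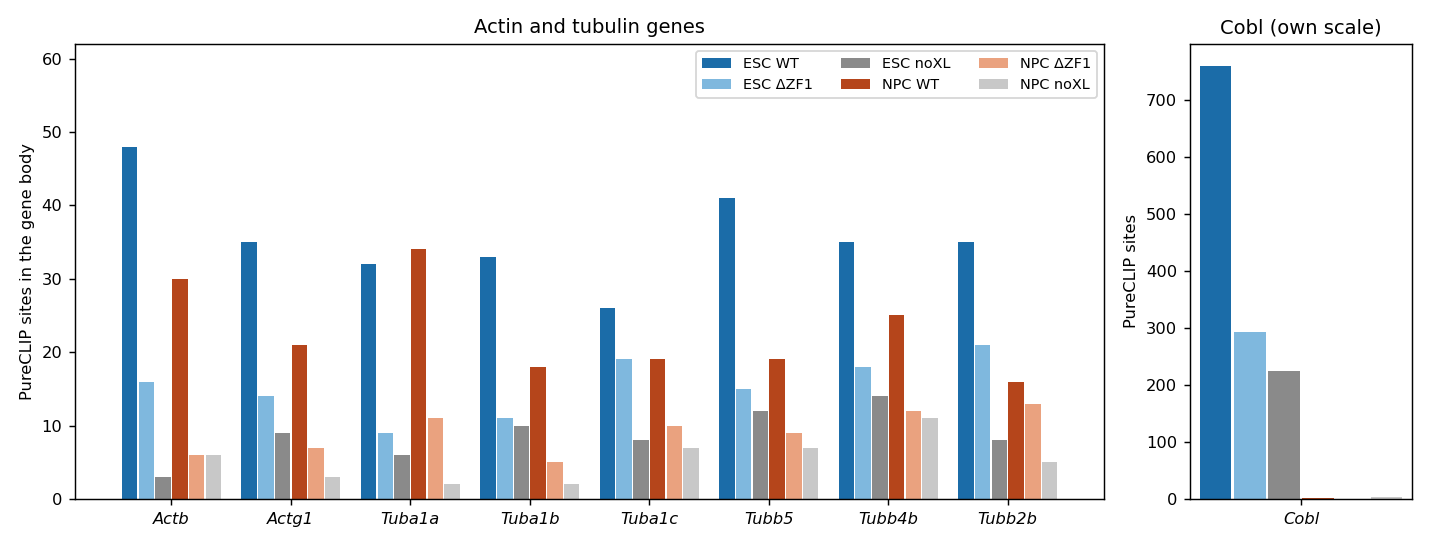
Number of PureCLIP sites in the body of each gene (y axis) in the 6 pooled lists (bar colours), with Cobl on its own scale; there are no replicates and no error bars. Every one of the 8 short genes has its tallest ESC bar in WT, from 26 (Tuba1c) to 48 (Actb), and Cobl has 760 sites in ESC WT against 2 in NPC WT.

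Per length of exon, the ESC WT list gave 17.7 sites per kb for Tuba1a, 14.9 for Actb, 14.4 for Tubb4b and for Tubb2b, 13.2 for Actg1, 12.0 for Cobl, 10.2 for Tubb5, 6.56 for Tuba1c and 6.40 for Tuba1b. Cobl was therefore within the range of the other genes by its exons, and most of its sites were intronic. Tuba1b was the only short gene with most of its ESC WT sites in introns, 21 of 33. Exons 2 and 3 of its main transcript (223 and 149 nt) held 0 sites in every list. Tuba1a had no intronic site in ESC WT and 1 in ESC ΔZF1, but 10 in NPC WT and 6 in NPC ΔZF1, and its exonic sites went from 32 to 24 between the WT lists. Most sites of Tuba1a (30 of 32) and Tuba1b (24 of 33) in ESC WT lie also inside the annotated gene Gm49450, which overlaps part of each on the same strand.

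Identity to relatives limits these counts. Of all 30-nt stretches of the mature main transcript, 64.8% in Tuba1b occur also in Tuba1c, 55.1% in Tuba1a occur in Tuba1c, and 5.82% in Actb occur in Actg1. The 30 nt that follow an ESC WT site were unique in the genome for 40.0% of Actg1 sites, 40.6% of Tuba1a, 54.3% of Tubb2b, 61.5% of Tuba1c, 65.7% of Tubb4b, 77.1% of Actb, 84.8% of Tuba1b, 98.3% of Cobl and 100% of Tubb5 sites, against 94.5% of all genic sites. How the alignment treated reads with several matches is not given in the sources used here, so sites outside unique sequence, those of Actg1 and Tuba1a above all, may hold reads of a relative or a pseudogene. Like exons 2 and 3 of Tuba1b, exon 2 of Tuba1c (223 nt) and exon 6 of Actg1 (844 nt) were empty in every list. Exon 2 of Tuba1a held 9 ESC WT sites, and 11 for NPC WT. Whether reads of the empty exons were dropped or placed in relatives was not tested. Exon densities, intron shares and unique shares of these genes therefore describe called sites only.

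In 7 of the 8 short genes the site with the highest ESC WT score had a noXL site within 5 nt in both cell types. It lay in the 5′UTR in 6 of them and in a noncoding exon in Tubb2b. The PureCLIP score rises with the evidence that a nucleotide was crosslinked and is not scaled to depth. These windows of 25 nt (mm10, RNA strand written as DNA, 5′ to 3′, the called nucleotide in capitals) are shown because they hold the highest ESC WT score of each gene and lie beside control sites. In other lists the highest score could lie elsewhere, as for Tubb5 and Tuba1c in NPC WT, where it was in a coding exon.
Actb 5′UTR (chr5:142906715-142906739, minus strand): cgcaacgcgcagCcactgtcgagtc
Actg1 5′UTR (chr11:120348481-120348505, minus strand): ggccgcggtcggTctcacactccgc
Tuba1a 5′UTR (chr15:98953541-98953565, minus strand): tccgcccaagtgCcgcaggttctct
Tuba1c 5′UTR (chr15:99030307-99030331, plus strand): tggaggcggaccTtacacagcttct
Tubb5 5′UTR (chr17:35838222-35838246, minus strand): ccggcctcttctGcctcttagaacc
Tubb4b 5′UTR (chr2:25224644-25224668, minus strand): gcgtcggttgtaGcactctgtgcgc
Tubb2b noncoding exon (chr13:34130344-34130368, minus strand): acccggccctcgCcctcagcccgta
The Actb site is 28 nt from the start of its main transcript and had ESC scores of 251 in WT, 375 in ΔZF1 and 222 in noXL. In NPCs it scored 361 in WT and 173 in noXL and was not called in ΔZF1. The Actg1 site, 50 nt from the start, scored 261, 196 and 311 in the ESC lists and 391, 24.1 and 228 in the NPC lists. In NPC ΔZF1 the Actg1 score was lower than in the NPC control. The Tubb5 site scored 284, 271 and 188 in ESC WT, ΔZF1 and noXL. Only 2 of the 7 called nucleotides are uridines, 3 are cytidines and 2 guanosines.

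A second kind of site recurred between the UV lists. Of 1838 different positions called in the 9 genes, 44 were called at the same nucleotide in at least 3 of the 4 UV lists. Of these, 20 had no noXL site within 5 nt, and 24 had one. The first 20 were uridines in 20 of 20 positions (83.9 to 100%) and lay in coding exons in 16, whereas the other 24 were uridines in 9 (37.5%, 21.2 to 57.3%) and lay in 5′UTRs in 17. The same division over all genes gave 78.2% uridine and 54.4% coding for 6763 positions without a near noXL site, and 34.8% uridine and 50.6% 5′UTR for 5807 positions with one. The windows of several such UV-only positions are shown as examples called in at least 3 UV lists, with 1 pair shared by both actins. All 6 windows read UUG at the called nucleotide, whereas 8 of the 20 positions do not.
Actb exon 3 (chr5:142905363-142905387, minus strand): tgaacatggcatTgttaccaactgg
Actb exon 6 (chr5:142903924-142903948, minus strand): tcttcagatcatTgctcctcctgag
Actb exon 5 (chr5:142904112-142904136, minus strand): gtacccaggcatTgctgacaggatg
Actg1 exon 5 (chr11:120346682-120346706, minus strand): gtacccaggcatTgctgacaggatg
Tubb5 exon 4 (chr17:35835495-35835519, minus strand): catgcctggcttTgcccctctcacc
Tubb5 exon 4 (chr17:35835955-35835979, minus strand): ttgactctgtctTggatgtggtgcg
All 20 positions had a uridine directly before the called one, and 12 of the 20 (60%, 38.7 to 78.1%) read UUG, with the called nucleotide in the middle, against 27.6% of the 6763 positions of all genes (counted on the RNA strand at this register only). UUG was noticed in these windows and then counted, so its share is a description. The Actb exon 5 and Actg1 exon 5 windows are the same 25 letters, and the matching nucleotide was called in each gene. The 30 nt that follow occur 2 times in the genome for the Actb site and 7 times for the Actg1 site, and whether reads of one gene were counted in the other was not tested. The Actb exon 3 site, at unique sequence, scored 105 in ESC WT, 266 in NPC WT and 136 in NPC ΔZF1, and was not called in ESC ΔZF1 or without UV.

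**Figure D2:**
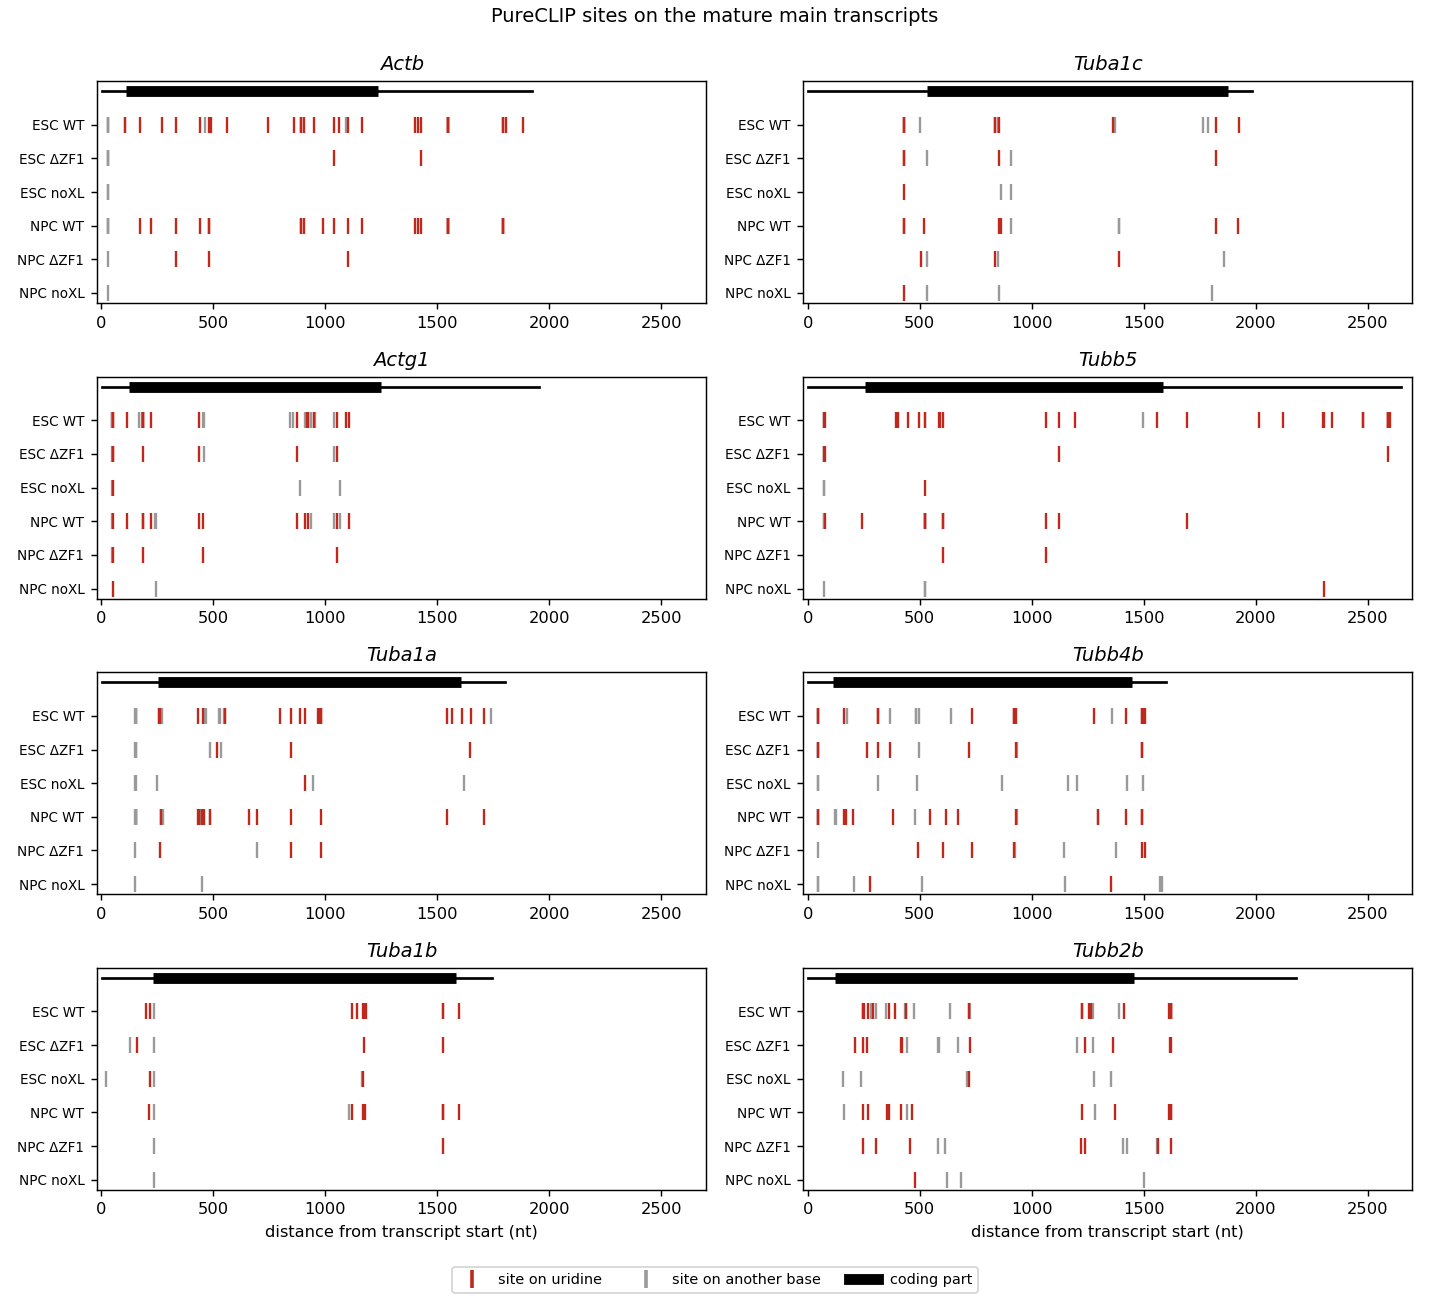
Sites on the main mature transcript of the 8 short genes (x axis, nt from the transcript start), one row for each list, coloured by whether the called base is a uridine; the thick bar is the coding part and intronic sites are left out. Sites near the transcript start stand in nearly all rows and are often not uridines, while sites along the coding part are mostly uridines and stand mostly in the WT rows (145 coding sites in ESCs with WT, 42 with ΔZF1 and 24 without UV).

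The parts of the 8 short genes differed between lists in the same way. In ESC WT, 145 of 285 sites (50.9%, 45.1 to 56.6%) were in coding exons, 41 (14.4%) in 3′UTRs, 29 (10.2%, 7.18 to 14.2%) in 5′UTRs and 54 (18.9%) in introns. Without UV, 18 of 70 ESC sites (25.7%, 16.9 to 37%) and 11 of 43 NPC sites (25.6%, 14.9 to 40.2%) were in 5′UTRs, against 6.54% and 6.05% of all genic noXL sites. In NPC WT, 96 of 182 sites (52.7%) were coding and 25 (13.7%) in 5′UTRs. The 5′UTR share of these genes was lower in WT than in noXL, with intervals that do not overlap in ESCs and that overlap in NPCs (9.48 to 19.5% in NPC WT), while over all genes it was higher in WT, at 7.89% in ESCs and 8.78% in NPCs.

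Uridine, the base that UV links most readily to protein, lay under 65.3% (186 of 285) of the ESC WT sites of the 8 genes, 52.0% (64 of 123) of ESC ΔZF1 and 22.9% (16 of 70) of ESC noXL sites. In NPCs it lay under 67.0% (122 of 182) of WT, 63.0% (46 of 73) of ΔZF1 and 34.9% (15 of 43) of noXL sites. Over all genic sites the shares were 60.6%, 49.2% and 28.3% in ESCs and 64.6%, 59.0% and 27.9% in NPCs, so the genes followed the lists they were in. The 3′UTR sites of the 8 genes stood out in ESC WT, with 39 of 41 on uridine (95.1%, 83.9 to 98.7%) against 71.1% of all 3′UTR sites, and in NPC WT with 19 of 19 (83.2 to 100%) against 74.0%. They came from Actb (11 sites in ESC WT), Tubb5 (12), Tubb4b and Tubb2b (6 each), Tuba1a (4), and Tuba1b and Tuba1c (1 each). Actg1 had 0 sites in its 703-nt 3′UTR in any list, and 0 of 35 sites allows a share of up to 8.57% in ESC WT, taking 3 sites as the floor. Whether reads of this part were lost in alignment was not tested.

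**Figure D3:**
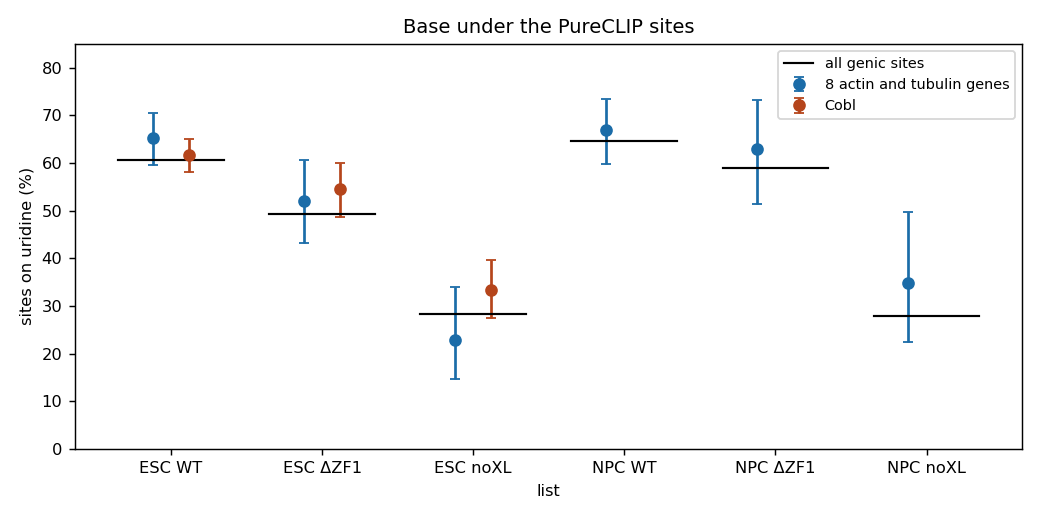
Share of sites on uridine (y axis, %) in each list for the 8 short genes together and for Cobl, with 95% Wilson intervals, and for all genic sites as a black line; Cobl is left out of NPC lists, where it has at most 3 sites. Points for the 8 genes fall from 65.3% in ESC WT to 22.9% in ESC noXL, near the line in each list.

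Positions recurred between WT lists in the short genes. Of 182 NPC WT sites, 117 (64.3%, 57.1 to 70.9%) had an ESC WT site within 5 nt, with the highest shares in Actb (25 of 30) and Actg1 (17 of 21) and the lowest in Tuba1c (5 of 19). Of 123 ESC ΔZF1 sites, 60 (48.8%, 40.1 to 57.5%) were near an ESC WT site, and of 73 NPC ΔZF1 sites, 29 (39.7%, 29.3 to 51.2%) were near an NPC WT site. A control site of their own cell type lay within 5 nt of 47 of 285 WT and 32 of 123 ΔZF1 sites in ESCs (16.5% and 26.0%), and 32 of 182 and 9 of 73 in NPCs (17.6% and 12.3%). In Cobl, 34 of 292 ESC ΔZF1 sites (11.6%, 8.45 to 15.8%) were near an ESC WT site, a lower share than in the short genes. With ESC ΔZF1 positions shifted by 500 and 1000 nt both ways inside each gene, the mean share was 6.93% in Cobl and 6.71% in the short genes. The shifted shares of the short genes were 7.14% for NPC with ESC WT and 5.82% for NPC ΔZF1 with WT. Against the controls they lay from 1.37% to 2.63%.

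To ask whether contacts with these RNAs depended on zinc finger 1, ΔZF1 counts were set against WT counts. The log2 ratio of the counts (each plus 1) was scaled by subtracting the log2 ratio of the genic sites of both lists, and a gene was compared when it held at least 20 sites in both together and was past the limits at 1 or more or at -1 or less. Before scaling, all 9 genes had fewer ESC ΔZF1 than ESC WT sites (median log2 ratio -1.38), as had all 8 that could be compared in NPCs (median -1.23). The log2 ratio of all genic sites was -0.98 in ESCs and -0.59 in NPCs, so a gene that kept its share of the list would be lower too. After scaling, 0 of 9 were past the limits in ESCs, where 6.84% of 6518 genes were higher and 5.45% lower, and the median was -0.40 against 0.04 over all genes. In NPCs 0 of 8 were higher and 2 lower, against 5.76% and 7.36% of 5274 genes, and the median was -0.64 against -0.04. The lower pair were Actb, at -1.56 (-2.96 to -0.51), and Tuba1b, at -1.08 (-2.64 to 0.12), whose interval includes 0. In ESCs, Tuba1c was past the higher limit with sites in unique sequence (1.06), and Actb past the lower one with uridine sites alone (-1.01) or exonic sites (-1.24). In NPCs 1 gene was lower with sites in unique sequence, of 5 that could be compared, and 1 with uridine sites alone, of 4. Lower were 3 with scores of at least 3.02, of 5, and 3 when chromosome 11 was left out of the scaling, of 8. Shares of all genes were not counted at these settings, so these counts describe the members only.

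The highest scaled ratios were those of Tuba1c in ESCs, at 0.55 (-0.32 to 1.37), and Tubb2b in NPCs, at 0.31 (-0.75 to 1.32). Tubb2b was above 0 in both cell types (0.27 in ESCs), and Actb, Actg1, Tuba1a, Tuba1b and Tubb5 were below 0 in both, with counting intervals that include 0 in all these cases but Actb and Tuba1a in NPCs. Cobl was at -0.40 (-0.60 to -0.21) in ESCs, with 292 sites against 760. Actg1 and Cobl are on chromosome 11, where the median over the compared genes of the whole chromosome was -0.47 in ESCs and -0.61 in NPCs. Actg1 was at -0.28 in ESCs and -0.87 in NPCs. Of the compared genes of that chromosome, 55.4% lay below Cobl and 63.1% below Actg1 in ESCs, and 30.1% below Actg1 in NPCs. The cause of the chromosome 11 shift was not tested.

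The difference between ΔZF1 and WT was not even along the genes. In Actb, coding exons and 3′UTR together held 32 WT sites and 2 ΔZF1 sites in ESCs, while the 5′UTR held 3 and 4 and the introns 8 and 8. In Tubb5 the same parts held 26 and 2 sites, 5 and 5, and 7 and 6. In Tuba1a the coding exons and 3′UTR held 28 and 5 sites, and the 5′UTR 4 and 3. Coding and 3′UTR sites of these 3 mRNAs were thus few in ESC ΔZF1, while their 5′UTR counts, and the intron counts of Actb and Tubb5, were close to WT before scaling. Scaled to the same parts of all genes, these 5′UTR and intron ratios lay from 0.51 (Tuba1a 5′UTR) to 1.15 (Actb 5′UTR), with intervals that include 0. Other genes differed, with 21 and 6 intronic sites in Tuba1b and 7 and 3 5′UTR sites in Actg1, and in NPCs the Tubb5 5′UTR held 5 and 0. The noXL list held 0 coding and 3′UTR sites of Actb and 2 in its 5′UTR.

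Over the 8 short genes, coding exons and 3′UTRs held 186, 49 and 26 ESC sites (WT, ΔZF1, noXL), against 54, 40 and 19 in introns. Scaled to the same parts of all genes, the ESC ΔZF1 to WT ratio was -0.94 (-1.41 to -0.51) in coding exons and 3′UTRs, 0.51 (-0.28 to 1.28) in 5′UTRs and 0.62 (0.03 to 1.2) in introns. In NPCs the counts were 115 and 40 in coding exons and 3′UTRs and 37 and 18 in introns, and the ratios were -0.65 (-1.19 to -0.16) and -0.97 (-1.81 to -0.21). The 5′UTRs held 25 and 7, at -0.40 (-1.71 to 0.64), so all 3 ratios lay below 0 in NPCs. The actins were at -1.46 (-2.52 to -0.62) in ESCs and -1.70 (-3.09 to -0.68) in NPCs in coding exons and 3′UTRs, and the tubulins at -0.72 (-1.26 to -0.23) and -0.27 (-0.87 to 0.29).

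When all genes were compared on coding exon and 3′UTR sites alone, a setting chosen after these counts had been seen, 3 of 7 genes were lower in ESCs and none higher, against 7.87% and 6.15% of 5351 genes. They were Actb at -2.49 (-4.95 to -1.12), Tubb5 at -2.20 (-4.66 to -0.81) and Tuba1a at -1.31 (-2.84 to -0.19). Actb was below all but 0.505% and Tubb5 below all but 0.748% of the genes compared. Both reached the site minimum through WT, with 32 and 26 sites, and held 2 ΔZF1 sites each. Because the setting was chosen from these counts, the ranks and the numbers of lower genes restate what prompted it. They are given as a description and test nothing. Tubb2b, with 31 and 16 sites, was at 0.05 (-0.85 to 0.87), and Tubb4b at -0.24 (-1.42 to 0.77). In NPCs 3 of 5 genes were lower and none higher, against 6.44% and 4.92% of 3946 genes: Actb at -1.74 (-3.73 to -0.44), Actg1 at -1.32 (-3.33 to 0.02) and Tuba1a at -1.15 (-2.89 to 0.09). Actb and Tuba1a were past the limit in both cell types, and none of these ratios has a replicate check.

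**Figure D4:**
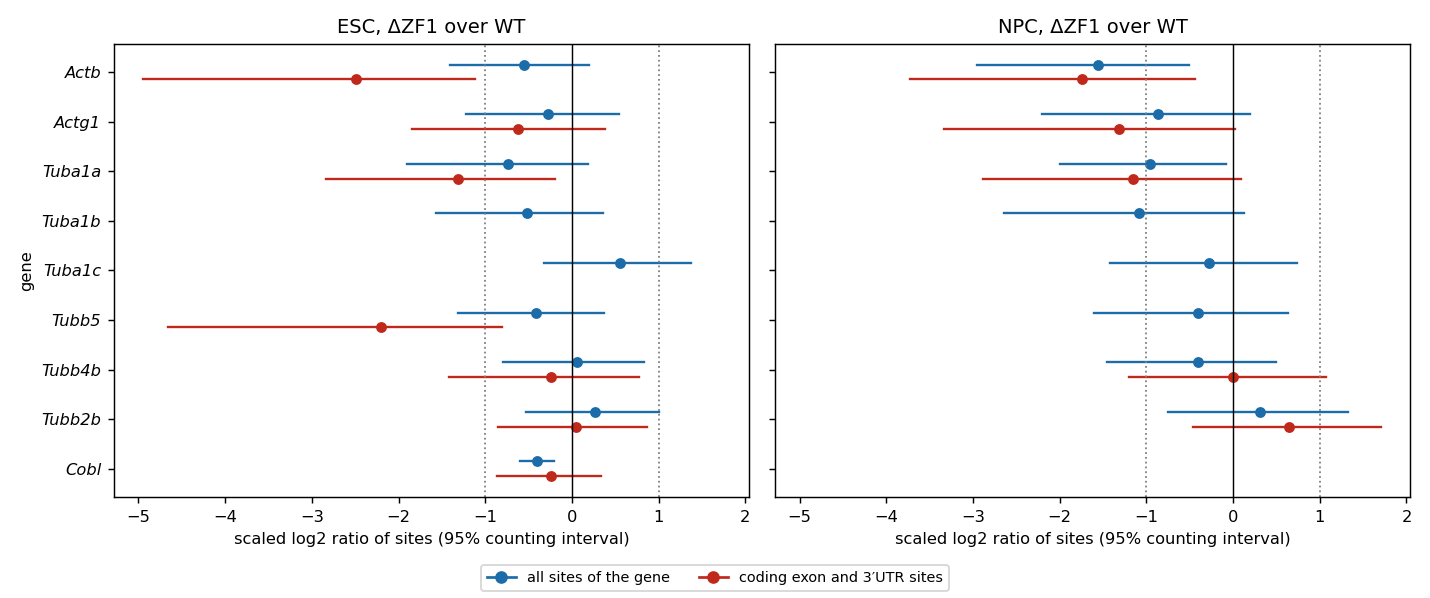
Scaled log2 ratio of ΔZF1 to WT sites (x axis) for each gene in ESCs and NPCs, from all sites and from coding exon and 3′UTR sites alone, with 95% counting intervals; dotted lines are the limits and genes with under 20 sites are not drawn. In ESCs the coding and 3′UTR ratio of Actb (-2.49) and Tubb5 (-2.20) lies far below their ratio over all sites (-0.55 and -0.41), while Tubb2b stays near 0.

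Between cell types, none of the 8 short genes was past a limit in the WT lists. The scaled NPC to ESC WT ratio was 0.98 (0.30 to 1.68) for Tuba1a, 0.47 (-0.40 to 1.29) for Tuba1c, 0.43 (-0.32 to 1.15) for Tubb4b, 0.24 (-0.43 to 0.87) for Actb, 0.19 (-0.61 to 0.93) for Actg1, 0.06 (-0.79 to 0.84) for Tuba1b, -0.17 (-0.99 to 0.56) for Tubb5 and -0.18 (-1.07 to 0.61) for Tubb2b. Tuba1a alone had an interval above 0, just under the limit. Its ratio was 0.36 with exonic sites alone, 1.40 with sites in unique sequence and 1.01 with scores of at least 3.02, the last 2 past the limit. Over all genes 11.5% were higher and 10.4% lower of 6730 compared. In the ΔZF1 lists 7 short genes could be compared and none was past a limit, where 10.9% of 5113 genes were higher and 14.1% lower. Without UV only Tubb4b, at 0.24 (-0.90 to 1.33), had the 20 sites needed, where 11.1% of 3726 genes were higher and 12.3% lower. Cobl was past the lower limit in all 3 comparisons, which its choice by these counts fixed, so nothing is read from that against the shares of all genes.

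The comparison of WT with noXL asked how far the contacts exceeded the control. In ESCs Actb was higher, with 48 against 3 sites and a scaled ratio of 2.11 (0.89 to 4.09), and the other 8 lay from -0.25 (Tubb4b) to 0.73 (Tuba1a), so 1 of 9 was higher and 0 lower, against 8.12% and 6.60% of 6208 genes. In NPCs 3 of 8 were higher and 0 lower, against 10.5% and 6.51% of 4765 genes. They were Tuba1a, with 34 against 2 sites, at 2.37 (1.00 to 4.83), Tuba1b, with 18 against 2, at 1.49 (0.04 to 3.95), and Actg1, with 21 against 3, at 1.29 (-0.02 to 3.29). With sites in unique sequence 1 of 4 genes that could be compared was past the limits, and with uridine sites alone 0 of 2. No share of all genes was counted at either setting. With all sites, Actb was just under the limit in NPCs, at 0.97 (-0.08 to 2.38). The β-tubulins lay between -0.25 and 0.49 in both cell types, with intervals that include 0. With scores of at least 3.02, Actb, Actg1 (1.11) and Tubb2b (1.01) were past the limit in ESCs, and Actb was past it in NPCs (1.31).

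Cobl ranked 15th by sites among 10491 genes with a site in ESC WT and 15th among 10074 in ESC noXL. In NPCs it held 2 sites in WT and 3 in noXL and 0 in ΔZF1. The scaled NPC to ESC ratio was -7.09 (-9.54 to -5.80) for WT and -5.26 (-7.23 to -4.10) for noXL, and with the NPC ΔZF1 count of 0 set to a floor of 3 sites, in place of a Wilson limit, the share in the ESC ΔZF1 list was at least 68.5-fold higher. Both NPC WT sites lay in the 5′UTR in exon 1, on A and C. Without UV the gene went from 225 to 3 sites, so the control lists differed between cell types in the same direction.

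The ESC sites of Cobl lay mostly in introns, 662 of 760 in WT, 247 of 292 in ΔZF1 and 185 of 225 in noXL. Single introns were those of the main transcript, which held 685 ESC WT sites and take in exons of other transcripts. Introns 1 (77.9 kb) and 9 (39.8 kb) held 275 and 242 of the 760 ESC WT sites. The last 4 introns, 15.8 kb together, held 0 in ESC WT and 7 in ESC noXL. Within introns, 62.8% of ESC WT sites (59.1 to 66.4%) were uridines, against 55.1% (48.8 to 61.1%) in ΔZF1 and 35.7% (29.1 to 42.8%) in noXL, and 30.3% of the gene body. Sites within 100 nt of a splice site made up 1.06% of intronic ESC WT sites, close to the 1.26% of intronic positions that lie there. The median gap between called ESC WT positions was 78 nt and the widest 12364 nt. The highest ESC WT score was 28.9, against 284 in Tubb5, at a guanosine in intron 1 near the start of the gene, shown to set it against the 5′UTR sites above.
Cobl intron 1 (chr11:12464495-12464519, minus strand): ggggggtgggtgGgtggagggagtg
It was called in ESC ΔZF1 too, with a score of 4.89, and in no noXL list.

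Along Cobl, cut into 5 equal stretches of 45.7 kb from its start, ESC WT held 253, 84, 73, 214 and 136 sites, ESC ΔZF1 72, 25, 28, 116 and 51, and ESC noXL 49, 21, 19, 74 and 62. The scaled ΔZF1 to WT ratio was -0.82 (-1.21 to -0.46) in the first stretch and 0.10 (-0.23 to 0.42) in the fourth, whose intervals do not overlap. The noXL counts also weighed more on the last 2 stretches than the WT counts did. In coding exons Cobl held 49, 28 and 27 sites in the 3 ESC lists, and in its 3′UTR 26, 4 and 8.

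**Figure D5:**
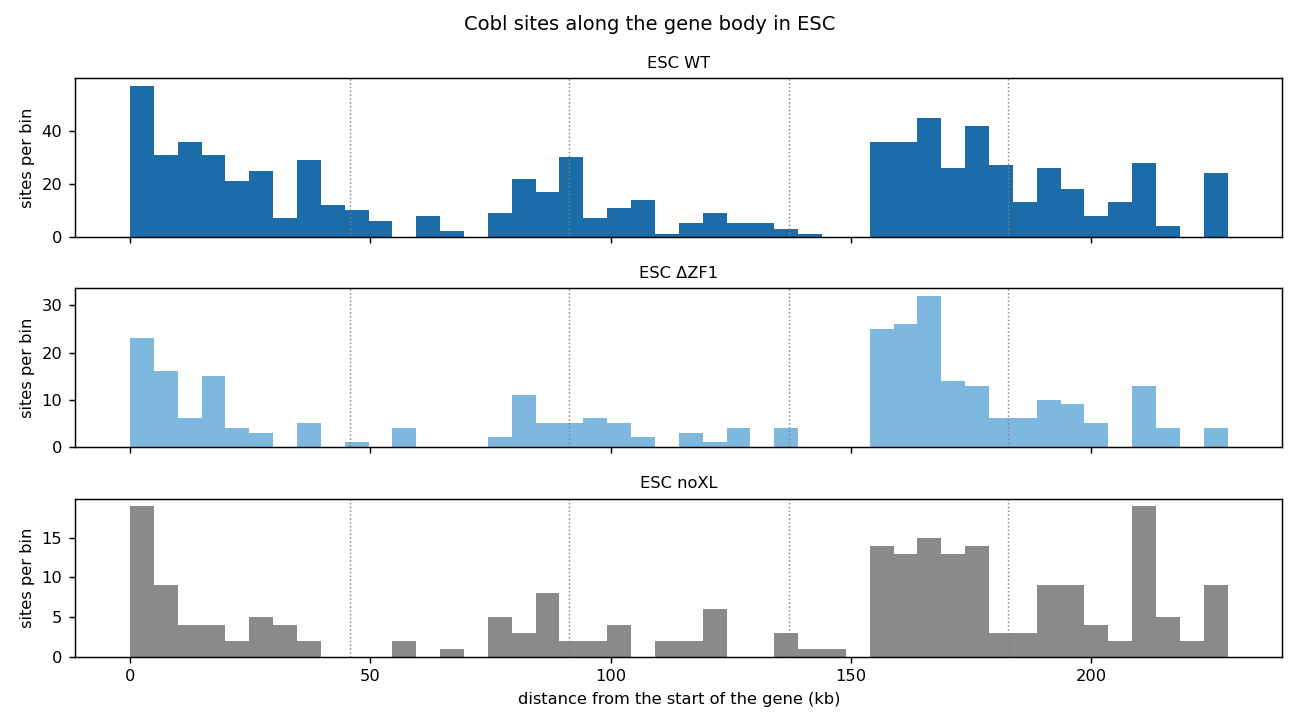
Sites of Cobl along its body in the 3 ESC lists (x axis, kb from the start of the gene; y axis, sites per bin of equal length; each list on its own scale), with dotted lines between the 5 equal stretches. All lists have sites at the start and from the fourth stretch on, and WT holds 253 in the first stretch against 72 in ΔZF1 and 49 in noXL.

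The 5 genes with the most similar pattern over the 6 lists, by Euclidean distance of scaled log2 counts among 1087 genes with at least 100 ESC WT sites, were Esrrb (2.70), Tfcp2l1 (2.94), Sh3gl2 (3.73), Tet2 (3.80) and Jam2 (3.97). Esrrb held 460, 263 and 158 sites in ESCs and 0 in each NPC list, and Tfcp2l1 held 343, 175 and 88 in ESCs and 5, 0 and 0 in NPCs. Esrrb and Tfcp2l1 encode transcription factors of the pluripotent state. On the same strand beside Cobl, Grb10 ran the other way, with 15 ESC and 279 NPC sites in the WT lists, while Fignl1 held 110 and 33 and Ddc 30 and 3.

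Among other genes of the actin and microtubule systems, the list medians between the WT lists lay from -0.18 to 0.64, where the median of all genes was 0.04 and 11.5% of genes were higher and 10.4% lower. Of 18 actin monomer and filament binding genes compared, 3 were higher and 0 lower in NPCs (median 0.57), of 18 actin nucleators 2 and 1 (0.20), of 9 microtubule binding genes 2 and 2 (0.31), of 11 tubulin folding and mRNA control genes 0 and 0 (-0.18), of 3 other actin genes 0 and 0 (0.64) and of 4 other tubulin genes 1 and 1 (0.29). Map1b, which binds microtubules in growing axons, held 5 WT sites in ESCs and 68 in NPCs, a ratio of 4.42 (3.40 to 5.93). In ESC ΔZF1 it held 42. Tuba3a (32 and 0 sites), Map7 (27 and 0) and Stmn2 (31 and 3), named after their values were seen, had fewer sites in NPC WT. The formin Fmnl2 held 22 and 32, at 1.42 (0.67 to 2.21), and Dstn, which takes actin filaments apart, 27 and 35, at 1.26 (0.56 to 1.99). Actr2, a subunit of the Arp2/3 complex, held 199 and 47, at -1.16 (-1.64 to -0.73). Between ΔZF1 and WT in NPCs, where 5.76% of all genes were higher and 7.36% lower, 6 of 20 nucleators compared were higher and 1 lower, as were 0 and 2 of 15 actin binding genes, 1 and 0 of 7 microtubule binding genes, 0 and 1 of 8 folding genes, 1 and 0 of 5 other actin genes and 0 and 1 of 3 other tubulin genes. In ESCs, against 6.84% and 5.45%, the counts in the same order were 1 and 0 of 18, 0 and 0 of 18, 2 and 0 of 9, 0 and 1 of 11, 0 and 0 of 3, and 1 and 0 of 4.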

How the data were processed

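Crosslink sites from 23 CTCF iCLIP2 libraries of mouse E14 cells in 6 groups were used, grouped by their labels. The authors used FastQC, Flexbar, STAR (mm10) and UMI-tools for quality, trimming, alignment and duplicates, merged the libraries of a group and called sites with PureCLIP, whose score is the deposited value. Versions and the handling of multiple matches are not given in the sources used here. Depth is unknown.

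Sites of the autosomes, X and Y were assigned by strand to GENCODE M21 genes on GRCm38, the build of mm10, and their bases read from the RefSeq copy of that genome. Main transcripts were APPRIS principal. Members and gene lists were chosen with earlier results of these data known. Ratios used a pseudocount of 1, genic scaling, at least 20 sites and limits of 1 and -1. Sharing used 5 nt, uniqueness the following 30 nt. Named genes were the 9 members, in the wider lists up to 3 highest and 3 lowest NPC to ESC WT ratios past the limits with at least 50 sites, and the 5 genes most like Cobl; Tuba3a, Map7 and Stmn2 fall outside this rule. Alternatives changed score, base, scaling, exons, overlap, uniqueness, merging, minimum, pseudocount and noXL removal. Calculations were tested on simulated data. Python 3.11.15, numpy 2.4.6, pandas 2.3.3 and matplotlib 3.10.9 were used. Some site sequences are not reported here.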

Additional observations from a re-analysis of the deposited data

How the results depend on the processing

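No paired analysis was possible because sites were called on merged libraries, which also kept single libraries from being left out. Over 556 recalculated gene ratios none past a limit changed direction, 522 stayed within their counting interval and 34 moved beyond it, 24 of them without scaling. The 53 and 18 ratios under minimums of 10 and 50 sites are among the 522 and could not move by construction. Shares of all genes were counted for the main and the coding exon and 3′UTR settings alone, so the counts below describe the members only. Without scaling, list size moves all genes alike, by 1.51 in log2 for ESC WT over noXL. The number of genes past the limits moved as follows. Without scaling it was 6 in ESC ΔZF1 over WT, 6 in NPC ΔZF1 over WT, 3 in NPC over ESC WT, 2 in NPC over ESC ΔZF1, 9 in ESC WT over noXL and 8 in NPC WT over noXL. With scores of at least 3.02 it was 2 in NPC over ESC WT and 3 in ESC WT over noXL. In ESC ΔZF1 over WT it was 1 with uridine sites, with exonic sites, with unique sequence and with sites near noXL removed, and 3 with coding exon and 3′UTR sites. In NPC ΔZF1 over WT it was 1 with uridine sites, with sites in 1 gene, with unique sequence and with runs within 8 nt merged, and 0 with at least 50 sites, where no gene could be compared, and 3 with scores of at least 3.02, with sites near noXL removed and with chromosome 11 out of the scaling. In NPC WT over noXL it was 4 with a pseudocount of 0.5, and 2, of 5 compared, with runs within 8 nt merged. In NPC over ESC WT it was 2 with unique sequence (Tuba1a higher, at 1.40, and Cobl lower), and in NPC over ESC noXL 2 with at least 10 sites. In NPC WT over noXL it was 0 with uridine sites (of 2 compared) or at least 50 sites (none compared), and 1 with exonic sites, sites in 1 gene or unique sequence.

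Leaving out Cobl took the exon share in ESCs from 31.5% to 81.1% (WT), 30.8% to 67.5% (ΔZF1) and 30.8% to 72.9% (noXL), and scores of at least 3.02 gave 45.6% and 38.4% for WT and ΔZF1 in ESCs and 90.7% for NPC WT. The ESC noXL uridine share was 22.9% without Cobl and 25.3% in exons. Sharing over all 9 genes at 0 and 20 nt was 13.5% and 36.1% for ESC ΔZF1 with WT, 27.4% and 54.8% for NPC ΔZF1 with WT, 45.1% and 75% for NPC with ESC WT, 2.3% and 12.8% for ESC WT with noXL and 6.52% and 24.5% for NPC WT with noXL. With uridine sites the last 2 were 2.6% and 2.46%. With 20 to 50 sites a gene, ratios below about the limit cannot be told from 0 by counting error.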
